A study of Mus musculus with 13 samples.

Results

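Livers of mice treated with canagliflozin were compared with livers of mice held at a matching weight by eating less. Each of the study's 13 arrays carries a title that gives its group, and the 9 arrays of these 2 groups were taken, 4 titled as canagliflozin on the high fat diet (CANA) and 5 titled as caloric restriction (CR). Per the labels, all mice were male C57Bl/6J, started at an age of 6 weeks on a diet with 60% fat, and ate it freely for 4 weeks, which made them obese. CANA mice then received canagliflozin at 25 to 30 mg/kg on that diet, given as 30 mg/kg in the study's design text, and liver RNA was taken after 4 weeks of treatment. CR mice were restricted by 15 to 30% of calories over the same time to match the weight of the CANA mice. The other 4 arrays are of mice that stayed on the high fat diet (HFD), and they serve here to share the estimate of spread and to place each level. No allele or transgene is named for any group, and all groups share the obesity made by the diet before treatment. Body weights, food intake and the composition of the restricted diet were not examined here.

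Canagliflozin blocks SGLT2, the sodium-glucose cotransporter that takes filtered glucose back up in the kidney tubule, so treated animals lose glucose in the urine and tend to lose weight. Liver responds to lower glucose and insulin by making less fat and glycogen and by burning more fatty acids, and eating less can set off parts of the same programme. A weight-matched group without the drug asks which differences remain when lower weight is shared by both groups.

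Array values are log2 levels, and differences below are CANA minus CR unless another pair is named. Array medians lay between 4.07 and 4.13, and the correlation between any 2 arrays across genes was 0.977 to 0.989. The mean level of 7 hepatocyte markers was 12.2 to 12.3 in CANA and 12.3 in every CR and HFD array. The labels carry a serial number per array, with 2 CANA and 3 CR arrays numbered 1 to 8 and 2 of each group numbered 9 to 14. The labels do not give the cut between 8 and 9, which was chosen after an earlier look at these data showed a split. What the number stands for is not stated. The labels say no more on whether each array came from its own animal, so each p-value speaks only for the spread among these samples, and precision is limited by how few arrays there are. In whole liver, fewer cells of a type and less RNA per cell cannot be told apart. Slc5a2, the gene of SGLT2, lay close to the lower limit of 3.95 set for tested genes, at 4.39, 4.35, 4.04 and 4.01 in CANA replicates 1 to 4 and at 4.41, 4.52, 3.99, 4.41 and 4.42 in CR replicates 1 to 5. The groups overlapped, and the difference was -0.15 (SE 0.12, limma adjusted p = 0.780).

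Canagliflozin and caloric restriction left livers that differed in a short list of genes, led by a lower glycogen-targeting subunit and a higher leptin receptor in CANA. Of 13308 genes tested, 20 (0.150%) passed the limma test at a Benjamini-Hochberg adjusted p under 0.05, with 13 higher (0.0977%) and 7 lower (0.0526%) in CANA. The higher genes were Lepr, Ppp1r3g, Ctcflos, 9430037G07Rik, Fbf1, Tbc1d8, Slc22a5, Nnmt, Fh1, Brap, Tmed5, Csrp2 and Abcb4, with differences from 0.47 to 2.00. The lower genes were Ppp1r3c, Fasn, Thrsp, Gm4956, Pklr, Akr1c20 and Rtkn, with differences from -0.60 to -2.11. CANA and CR arrays did not overlap in any of the 20, and 390 of all genes tested (2.93%) had no overlap. The call rests on the same separation, so nothing is read from that count. An unadjusted p under 0.05 was reached by 1122 genes against 665 expected by chance. Over all genes the differences were balanced, with 6498 above and 6810 below zero. The count of 20 fell to 9, 7 and 8 without CANA replicates 2, 3 and 4, to 8, 8 and 12 without CR replicates 1, 2 and 4, and lay between 15 and 23 without any other array. Ppp1r3c, Lepr, Ctcflos, Fh1 and Brap kept their call in each of the 13 fits that omitted a single array.

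**Figure D1:**
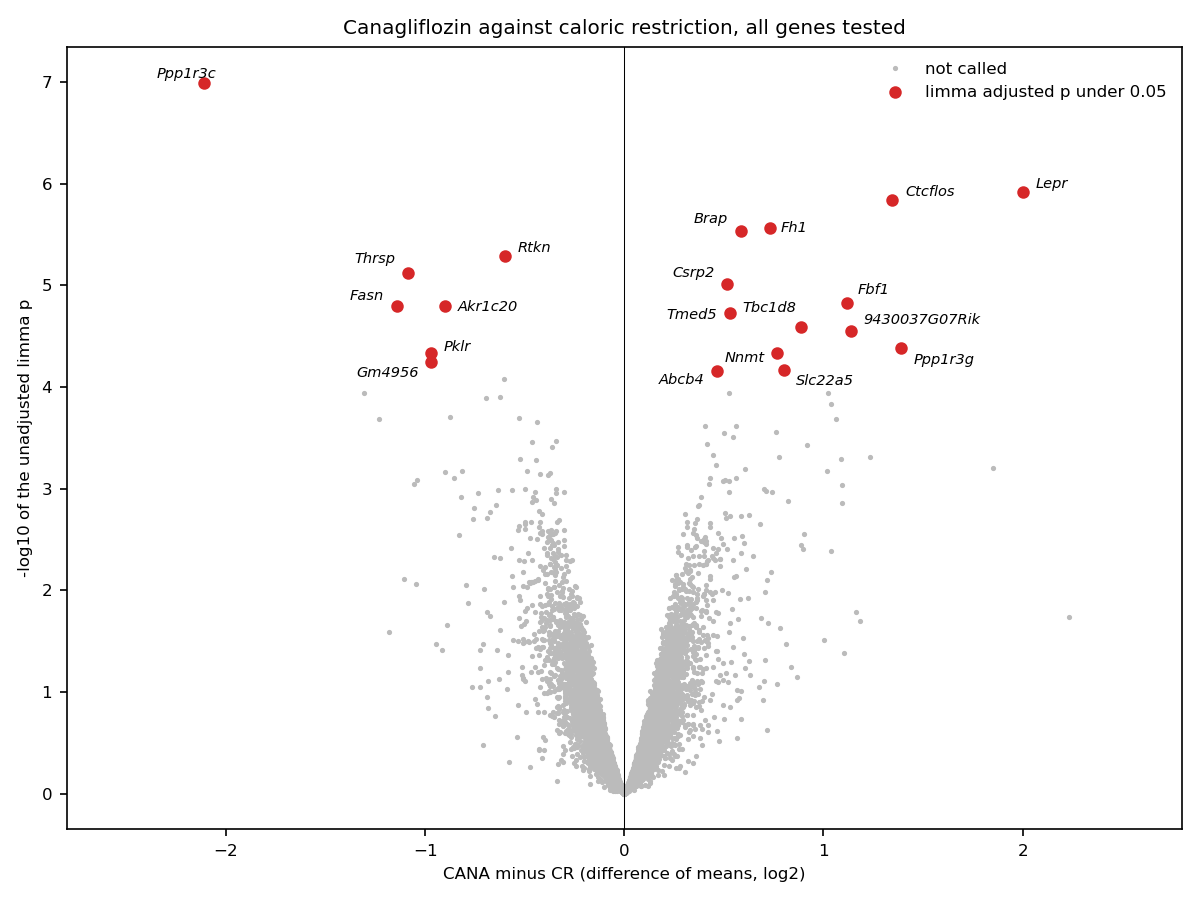
Each point is 1 of the 13308 genes tested. The horizontal axis gives CANA minus CR as a difference of mean log2 values, and the vertical axis gives -log10 of the unadjusted limma p. Red points with names are the 20 genes with an adjusted p under 0.05, with Ppp1r3c at the far left (-2.11) and Lepr at the far right (2.00) among them.

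Glycogen regulation held the largest fall and the second largest rise among called genes. Ppp1r3c encodes protein targeting to glycogen, a subunit that brings protein phosphatase 1 to glycogen and favours its synthesis. Its promoter is shown because the gene had the smallest p of all 13308, as the 250 bases before the RefSeq start on GRCm38.p6 (chr19:36736605-36736854, minus strand), with a CCAAT box read on the reverse strand and a CACGTG E-box in capitals.
Ppp1r3c: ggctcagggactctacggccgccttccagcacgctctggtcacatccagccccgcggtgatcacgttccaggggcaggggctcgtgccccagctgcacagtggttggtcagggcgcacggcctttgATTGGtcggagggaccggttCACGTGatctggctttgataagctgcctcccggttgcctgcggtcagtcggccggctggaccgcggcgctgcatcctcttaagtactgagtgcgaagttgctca
The CCAAT match lies 124 to 120 bases and the E-box 104 to 99 bases before the start. Of 32851 windows of this length, searched on both strands, 33.8% hold CCAAT and 6.02% hold CACGTG. Ppp1r3c stood at 5.47, 5.13, 4.81 and 5.44 in CANA, at 7.46, 7.00, 7.19, 7.16 and 7.81 in CR, and at 6.47, 5.88, 7.18 and 6.95 in HFD. Every CANA array lay below every CR and HFD array, and HFD replicate 3 lay inside the CR range with the other HFD arrays below it. The difference of -2.11 (SE 0.23, 95% interval -2.60 to -1.62) is a 4.32-fold lower signal in CANA (limma adjusted p = 0.00134). It was -1.92 within serial numbers 1 to 8 and -2.36 within 9 to 14.

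A second subunit of the same phosphatase went the other way. Ppp1r3g encodes a targeting subunit tied to glycogen synthesis in the fasting and refeeding cycle of liver, and it stood at 5.47, 5.57, 6.97 and 5.92 in CANA against 4.69, 4.82, 4.00, 4.59 and 4.88 in CR. All CANA arrays lay above all CR arrays, and CANA replicate 3 was more than 1 unit above the other CANA arrays. The difference was 1.39 (SE 0.25, 2.62-fold, limma adjusted p = 0.0363). The call was lost in 8 of the 13 fits that left out an array (adjusted p 0.0503 to 0.101), namely without CR replicates 1, 2, 3 or 4, CANA replicates 2 or 4, or HFD replicates 2 or 4. Ppp1r3b, the main hepatic targeting subunit, was at 8.53, 8.38, 8.55 and 8.48 in CANA and at 9.74, 9.27, 8.57, 9.53 and 9.59 in CR. CR replicate 3 was only just above CANA and the other CR arrays well above it, and the difference of -0.85 did not pass (limma adjusted p = 0.171). A further probe set of Ppp1r3b gave -0.92. Gys2, the glycogen synthase of liver, was at 0.41 without overlap (limma adjusted p = 0.330) and Pygl, the liver glycogen phosphorylase, at -0.25 (0.564), and neither passed. Of 16 tested genes of the glycogen list, Ppp1r3g was called higher and Ppp1r3c lower, beside 0.150% called over all genes. In the list 7 lay above zero, and the median was -0.01 beside -0.00 over all genes. An unadjusted limma p under 0.05 was reached by 3 on the high and 4 on the low side, beside 4.11% and 4.32% of all genes. On each side 2 had no overlap, beside 1.42% and 1.51%.

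**Figure D2:**
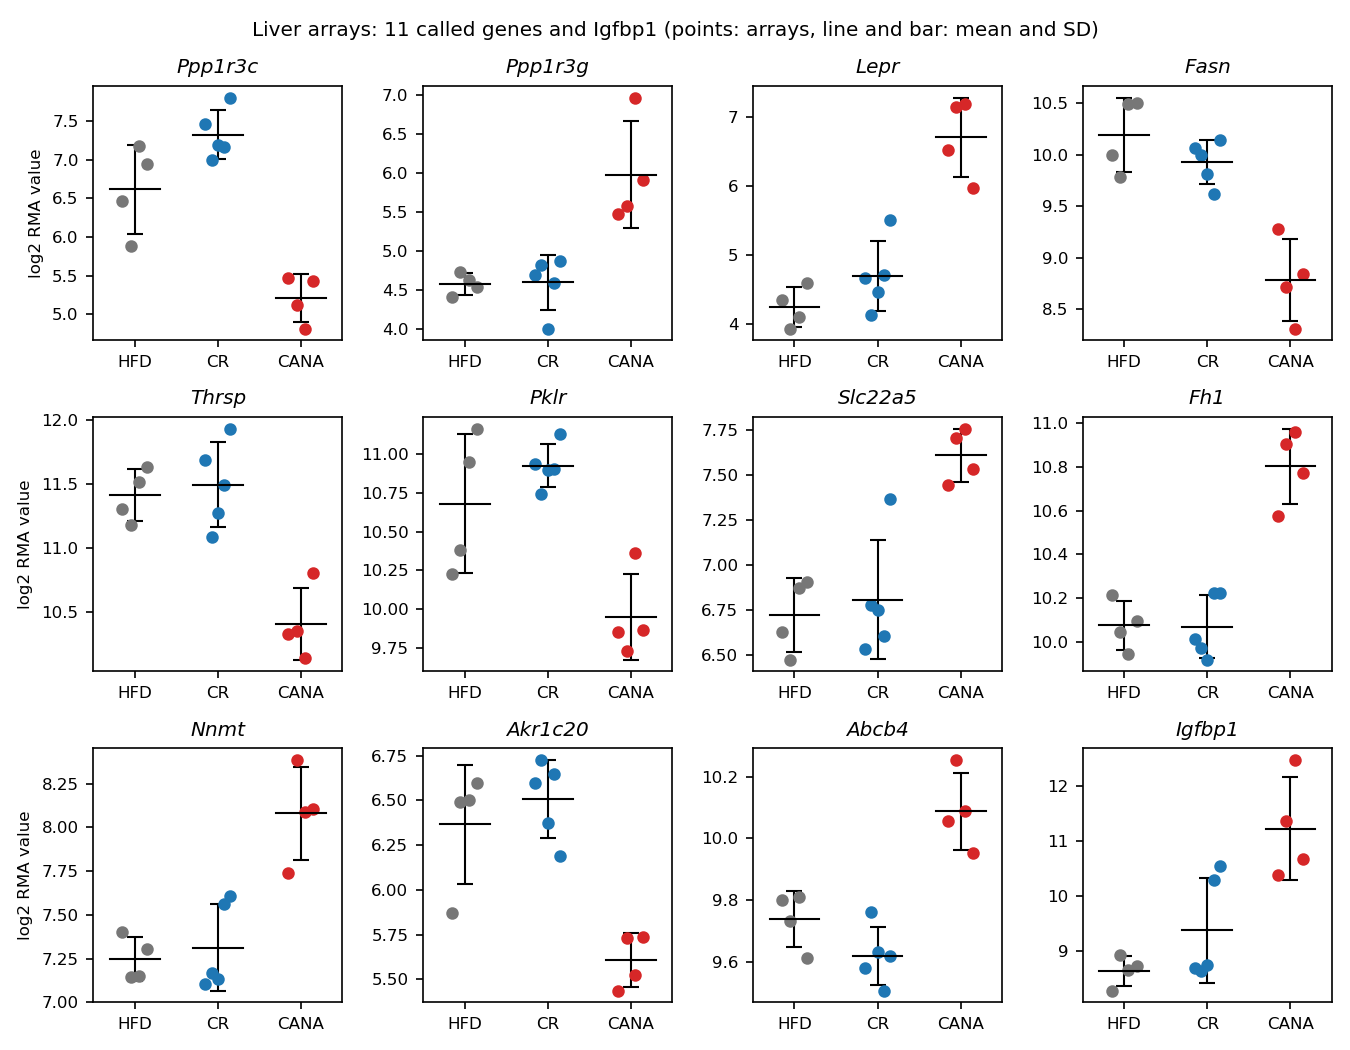
Log2 RMA values of 11 called genes and of Igfbp1 in each array, by group, with the mean as a line and the SD as a bar (HFD n = 4, CR n = 5, CANA n = 4). In the 11 called genes all CANA points lie to one side of all CR points, while in Igfbp1 CR replicate 5 lies above the lowest CANA array.

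Transcripts for making fat from carbohydrate were lower under canagliflozin than under weight-matched restriction in 2 called genes. Fasn, the fatty acid synthase, and Thrsp, the Spot 14 protein that promotes lipogenesis, both fell. The remaining lipogenic genes lay on the same side of zero without passing. The promoters of both called genes are shown because their levels in CANA moved the same way, as the 250 bases before the RefSeq start on GRCm38.p6, Fasn at chr11:120824548-120824797 and Thrsp at chr7:97417551-97417800, both on the minus strand, with CCAAT boxes on either strand and the FoxO-type sequence CAAAACA in capitals.
Fasn: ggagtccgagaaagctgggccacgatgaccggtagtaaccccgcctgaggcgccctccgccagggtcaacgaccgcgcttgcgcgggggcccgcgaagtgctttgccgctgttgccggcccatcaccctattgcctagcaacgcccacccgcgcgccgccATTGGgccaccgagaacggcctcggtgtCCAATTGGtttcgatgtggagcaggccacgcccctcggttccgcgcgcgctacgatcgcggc
Thrsp: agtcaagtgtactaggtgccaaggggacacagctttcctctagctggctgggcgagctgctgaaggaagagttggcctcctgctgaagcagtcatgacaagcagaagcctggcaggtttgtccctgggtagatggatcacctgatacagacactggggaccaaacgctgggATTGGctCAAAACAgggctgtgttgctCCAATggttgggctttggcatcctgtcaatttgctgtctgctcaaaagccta
Fasn has CCAAT 90 to 86 bases before the start on the reverse strand, 62 to 58 on the forward strand and 59 to 55 on the reverse strand, and the last 2 overlap. Thrsp has it 79 to 75 bases before the start on the reverse strand and 52 to 48 on the forward strand, with CAAAACA between them at 72 to 66. CAAAACA is in 5.56% of the 32851 windows.

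Fasn stood at 9.28, 8.71, 8.31 and 8.84 in CANA, at 10.07, 10.00, 9.81, 9.61 and 10.14 in CR, and at 10.00, 9.79, 10.49 and 10.51 in HFD. The CANA arrays lay below every CR and HFD array, whereas CR and HFD overlapped. The difference was -1.14 (SE 0.19, 2.21-fold lower, limma adjusted p = 0.0195), with -0.96 and -1.31 within the lower and higher serial numbers. It lost its call without CANA replicates 2, 3 or 4 or CR replicates 1 or 2 (adjusted p 0.0572 to 0.0850). Thrsp stood at 10.33, 10.35, 10.15 and 10.81 in CANA and at 11.69, 11.09, 11.28, 11.49 and 11.93 in CR. CANA replicate 4 was the closest to CR but still below its lowest array. The difference was -1.09 (SE 0.17, 2.12-fold lower, limma adjusted p = 0.0144), and it missed the threshold without CR replicate 1 or CANA replicates 2 or 3 (0.0504 to 0.0718).

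Scd1, the desaturase that makes oleate, had the largest difference of the list without passing. It was at 11.04, 10.63, 11.55 and 11.34 in CANA and at 12.72, 12.13, 11.68, 12.48 and 13.22 in CR, a difference of -1.31 (SE 0.26, limma adjusted p = 0.0640). No CANA array reached the lowest CR array. Srebf1, which encodes the insulin-responsive lipogenic factor SREBP-1, was at -0.73 (limma adjusted p = 0.185), with CANA replicate 1 inside the CR range. Acly, which makes cytosolic acetyl-CoA, was at -0.40, Acaca, an acetyl-CoA carboxylase, at -0.42 and Mid1ip1, a partner that promotes its assembly, at -0.69, with limma adjusted p from 0.250 to 0.365. Dimmer probe sets of Mid1ip1 gave 0.16 and -0.24. Acaca stood at 8.05 in CANA replicate 1, inside the CR range, and at 7.56 to 7.59 in the other CANA arrays. Pgd, an NADPH-making enzyme of the pentose phosphate path, was at -0.43 (0.386). All 16 tested members of the list lay below zero, with a median of -0.56, against 48.8% above zero over all genes. An unadjusted p under 0.05 was reached by 10 of the 16 on the low side, beside 4.32% of all genes, and 4 of the 16 did not overlap on that side, beside 1.51%. The median was -0.51 within serial numbers 1 to 8 and -0.63 within 9 to 14.

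Angptl8, a hormone made by liver after feeding that restrains lipoprotein lipase, was at 7.03, 6.45, 6.52 and 6.51 in CANA and at 8.14, 7.45, 8.19, 7.96 and 7.55 in CR. The groups did not overlap, and the difference of -1.23 (SE 0.26) had a limma adjusted p of 0.0894. It passed in a fit to only the 9 arrays compared (0.0205). Cholesterol synthesis genes also lay below zero, 19 of 19 tested, with a median of -0.40, but none was called and none was free of overlap. Lss, the lanosterol synthase, was at -1.11 (SE 0.36), Stard4, a cholesterol transfer protein, at -0.40 and Fdps, a farnesyl diphosphate synthase, at -0.91, with limma adjusted p of 0.386, 0.519 and 0.564. Around its gene means the list stood at -0.52, -0.61, -0.26 and 0.35 in CANA, at -0.38, 0.56, -0.33, 0.43 and 0.51 in CR, and at -0.60, -0.07, 0.56 and 0.36 in HFD. CANA replicate 4 lay above CR replicates 1 and 3, which were among the other CANA arrays, so the groups overlapped widely. Sc5d, a late enzyme of that pathway, was at -0.29 (0.557).

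Glycolysis had its single call in Pklr, the pyruvate kinase of liver and a gene that responds to carbohydrate through ChREBP. Pklr stood at 9.85, 9.73, 10.36 and 9.87 in CANA, at 10.93, 10.74, 10.90, 10.90 and 11.13 in CR, and at 10.23, 10.38, 10.95 and 11.16 in HFD. CANA lay below all CR arrays and overlapped with HFD, since CANA replicate 3 was above HFD replicate 1. The difference was -0.97 (SE 0.17, 1.96-fold lower, limma adjusted p = 0.0367). The call was lost in 8 of 13 fits without an array, namely without CANA replicates 1, 2 or 4 or any of the 5 CR replicates (adjusted p 0.0660 to 0.139). Khk, the ketohexokinase that starts fructose breakdown, was at -0.53 (0.268). Txnip, another ChREBP target, was at 0.90 (0.274), on the opposite side, with all CANA arrays above all CR arrays. Of the 11 tested genes of this list, Pklr alone was called, 5 lay above zero, and the median was -0.13.

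**Figure D3:**
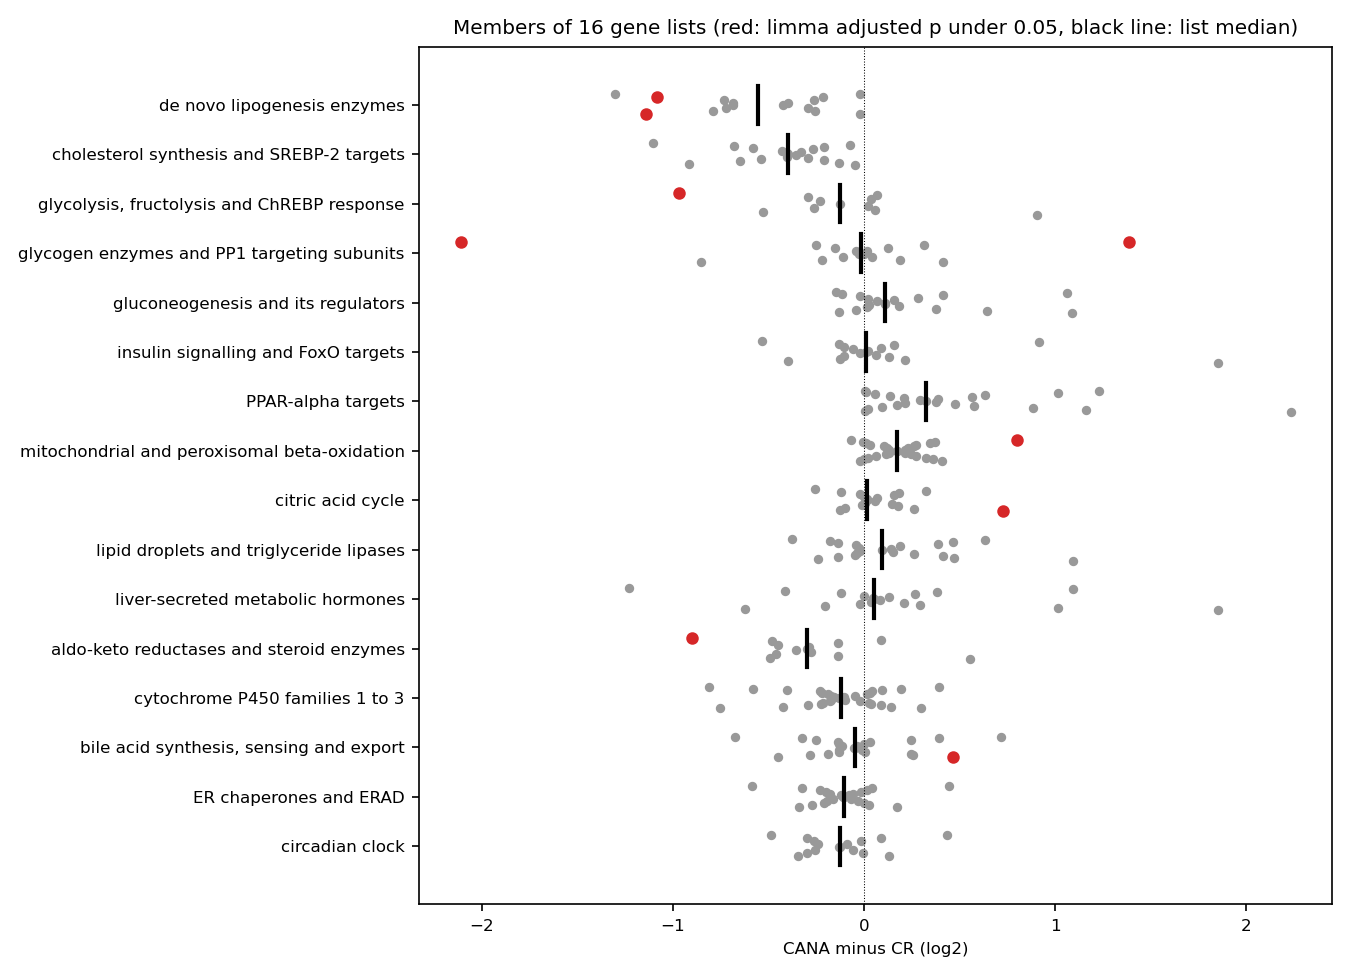
Each point is a tested member of 1 of 16 gene lists, placed by CANA minus CR on the log2 scale, with red for genes with a limma adjusted p under 0.05 and a black line at the list median. The medians of lipogenesis (-0.56) and cholesterol synthesis (-0.40) lie farthest to the left and that of PPAR-alpha targets (0.33) farthest to the right.

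Lepr, the leptin receptor, showed the largest rise among called genes. It stood at 6.52, 7.13, 7.19 and 5.97 in CANA, at 4.67, 4.14, 4.47, 4.71 and 5.51 in CR, and at 4.35, 3.94, 4.11 and 4.60 in HFD. All CANA arrays were above all others, and CR replicate 5 was the highest outside CANA. The difference of 2.00 (SE 0.26, 95% interval 1.44 to 2.56, limma adjusted p = 0.00641) is a 4.00-fold higher signal, with 2.40 among the arrays numbered 1 to 8 and 1.47 among those numbered 9 to 14. Leprot, the neighbouring gene whose product limits leptin receptor at the cell surface, was at -0.02 (SE 0.10, 95% interval -0.22 to 0.19). Its groups overlapped fully, and its sign turned in 3 of the other settings.

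None of the 17 tested genes of the insulin and FoxO list was called, 9 lay above zero, and the median was 0.01. Irs2, an adaptor of the insulin receptor, stood at 7.77, 7.34, 8.39 and 7.09 in CANA and at 6.70, 6.75, 6.40, 6.96 and 6.82 in CR. The arrays did not overlap, and the difference was 0.92 (SE 0.20, limma adjusted p = 0.121). Igfbp1, a secreted binding protein of insulin-like growth factors that rises when insulin is low, stood at 10.39, 11.36, 12.49 and 10.68 in CANA, at 8.69, 8.63, 8.74, 10.29 and 10.54 in CR, and at 8.27, 8.92, 8.65 and 8.72 in HFD. CR replicates 4 and 5 were well above the other CR arrays and close to the lowest CANA arrays, with CR replicate 5 above CANA replicate 1. Its difference was 1.85 (SE 0.44, 95% interval 0.93 to 2.78) with a limma adjusted p of 0.165. It was 2.19 among the arrays numbered 1 to 8, where it passed (0.0295), and 1.17 among those numbered 9 to 14, which include both high CR arrays (0.716). Pik3r1, the regulatory subunit of phosphoinositide 3-kinase, was at -0.40 (0.339) without overlap.

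Fatty acid use held 1 call, in the carnitine transporter. Slc22a5 encodes OCTN2, which carries the carnitine needed to bring long-chain fatty acids into mitochondria. It stood at 7.44, 7.71, 7.76 and 7.53 in CANA and at 6.53, 6.78, 6.75, 6.61 and 7.37 in CR. CR replicate 5 came close to the lowest CANA array, and the other CR arrays were far below. The difference was 0.80 (SE 0.15, 1.74-fold, limma adjusted p = 0.0465), and the call was lost in 12 of 13 fits, each without 1 of the arrays other than CR replicate 5 (adjusted p 0.0503 to 0.198). Among the 28 tested genes of mitochondrial and peroxisomal oxidation, 25 lay above zero with a median of 0.17, Slc22a5 was the called one, and 11 had an unadjusted p under 0.05 on the high side, beside 4.11% of all genes. In 3 of the 28 all CANA arrays lay above all CR arrays, beside 1.42% of all genes. Around their gene means the 28 genes stood at 0.096, 0.22, 0.21 and 0.01 in CANA. They stood at 0.00, -0.05, -0.21, -0.12 and 0.10 in CR, so the groups overlapped, with CR replicate 5 above CANA replicates 1 and 4. Cpt1a, the carnitine palmitoyltransferase that sets the pace of oxidation, was at 0.33 (SE 0.13, limma adjusted p = 0.519), and Crot, its peroxisomal counterpart for medium chains, at 0.36 (0.274).

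Targets of PPAR-alpha, the fatty acid sensor of liver, lay above zero in 23 of 23 tested genes with a median of 0.33, and none was called. Unadjusted limma p under 0.05 was reached by 8 of them on the high side, beside 4.11% of all genes. Around their gene means these genes stood at 0.00, 0.49, 0.72 and 0.29 in CANA, at 0.04, -0.14, -0.48, -0.27 and 0.31 in CR, and at -0.62, -0.40, 0.20 and -0.16 in HFD. The groups overlapped, with CANA replicate 1 below CR replicates 1 and 5. Cyp4a31, a fatty acid omega-hydroxylase whose close paralogs can share probes, stood at 7.61, 7.57, 8.60 and 7.66 in CANA and at 6.59, 6.31, 6.47, 6.66 and 7.11 in CR, with no overlap. Its difference was 1.23 (SE 0.28, limma adjusted p = 0.144). Cyp4a14, of the same family, had the largest difference of all genes tested at 2.23 but ranged from 5.86 to 11.07 within CR and from 9.89 to 12.03 within CANA (SE 0.85, 0.496). Fgf21, the fasting hormone of liver, was at 1.02 (0.165), with CR replicate 5 above CANA replicate 1. Pdk4, the kinase that shuts off pyruvate dehydrogenase, was at 1.16 (SE 0.43, 0.483), where CANA replicate 3 stood at 8.90 and the other CANA arrays at 6.04 to 6.58. Acot1, a cytosolic acyl-CoA thioesterase, was at 0.89 (0.289), with CANA replicate 3 at 7.72 and the other CANA arrays at 7.06 to 7.11.

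None of 21 tested genes of stored fat was called. G0s2, the inhibitor of adipose triglyceride lipase, stood at 8.41, 8.42, 8.34 and 8.40 in CANA and at 8.07, 6.76, 6.99, 6.88 and 7.81 in CR. CANA arrays were close to each other and lay above all CR arrays, and the difference was 1.09 (SE 0.27, limma adjusted p = 0.181). A dimmer probe set of G0s2 gave 0.25. Pnpla2, the lipase that G0s2 inhibits, was at 0.47 without overlap (SE 0.13, 0.274), and Plin2, the coat protein of liver lipid droplets, was at 0.39 (0.285). The list had 11 genes above zero and a median of 0.09.

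No gene in the list of gluconeogenesis and its regulators was called. Of the 19 tested, 14 lay above zero, and the median was 0.11. An unadjusted limma p under 0.05 was reached by 5 of them on the high side, beside 4.11% of all genes, and none was free of overlap. Sik1, a kinase induced by cyclic AMP, stood at 7.55, 8.22, 8.98 and 8.48 in CANA and at 6.98, 6.89, 7.15, 7.59 and 7.60 in CR. CANA replicate 1 lay inside the upper end of CR, and the difference of 1.06 (SE 0.22) had a limma adjusted p of 0.0894. Ppargc1a, the coactivator of gluconeogenic and mitochondrial genes, stood at 7.13, 7.52, 8.52 and 8.01 in CANA and at 6.56, 6.74, 6.08, 7.26 and 6.89 in CR. The groups overlapped at CANA replicate 1 and CR replicate 4, and the difference was 1.09 (SE 0.25, 0.144). G6pc, the glucose-6-phosphatase, was at 0.41 (0.470), Pck1, the phosphoenolpyruvate carboxykinase, at 0.28 (SE 0.10, 0.458) and Got1, the cytosolic aspartate aminotransferase, at 0.65 (0.312).

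The citric acid cycle was called in a single enzyme. Fh1 encodes fumarate hydratase, which turns fumarate into malate. It stood at 10.57, 10.90, 10.96 and 10.77 in CANA, at 10.02, 9.97, 9.92, 10.22 and 10.22 in CR, and at 10.22, 10.05, 9.95 and 10.10 in HFD. CANA lay above all other arrays, and CR and HFD shared 1 range. The difference was 0.73 (SE 0.10, 1.66-fold, limma adjusted p = 0.00786), with 0.77 and 0.64 within the lower and higher serial numbers. Of 19 tested cycle genes 13 lay above zero, with a median of 0.01. Among 10 urea cycle genes none was called, and 3 were without overlap, beside 2.93% of all genes, 2 of them above and 1 below zero, with Nags, which makes the activator of the cycle, at -0.42 (SE 0.10, 0.167) and Slc25a15, the mitochondrial ornithine carrier, at 0.34 (SE 0.10, 0.274).

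Nicotinamide, steroid and bile handling each held a called gene. Nnmt, the methyltransferase that uses nicotinamide and S-adenosylmethionine, stood at 7.74, 8.39, 8.09 and 8.10 in CANA and at 7.10, 7.16, 7.13, 7.56 and 7.61 in CR. CR replicates 4 and 5 were the nearest to CANA, below its lowest array. The difference was 0.77 (SE 0.14, 1.70-fold, limma adjusted p = 0.0367), lost in 8 of 13 fits without an array (0.0508 to 0.133), namely without CR replicates 1, 2 or 3, CANA replicates 2, 3 or 4, or HFD replicates 2 or 4.

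Akr1c20, an aldo-keto reductase of a family that acts on steroids and whose close paralogs can share probes, stood at 5.44, 5.73, 5.53 and 5.73 in CANA and at 6.60, 6.73, 6.38, 6.65 and 6.19 in CR. CANA arrays lay below all CR arrays. The difference was -0.90 (SE 0.15, 1.87-fold lower, limma adjusted p = 0.0195), lost without CANA replicates 1, 2, 3 or 4 or CR replicates 1, 2 or 4 (0.0504 to 0.0850). In its list of aldo-keto reductases and steroid enzymes, 11 of 13 tested genes lay below zero, the median was -0.30, and 4 had no overlap on the low side, beside 1.51% of all genes, among them Hsd3b3, a hydroxysteroid dehydrogenase, at -0.46 (0.119) and Hsd11b1, which regenerates active glucocorticoid, at -0.30 (0.293). The list median was -0.30 within serial numbers 1 to 8 and -0.42 within 9 to 14.

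Abcb4 encodes the floppase that delivers phosphatidylcholine to bile. It stood at 10.05, 10.25, 10.09 and 9.95 in CANA, at 9.58, 9.76, 9.63, 9.51 and 9.62 in CR, and at 9.80, 9.73, 9.81 and 9.61 in HFD. CANA lay above all others, and HFD overlapped with CR. The difference was 0.47 (SE 0.09, 1.38-fold, limma adjusted p = 0.0465), and the call was lost in every one of the 13 fits without an array (0.0556 to 0.153). The other 23 tested bile acid genes were not called, and the list median was -0.05. Cyp7a1, whose product limits the rate at which bile acids are made, was at 0.26 (SE 0.31, 95% interval -0.41 to 0.92), Cyp8b1, which sets the share of cholic acid, at 0.72 (0.387), and Nr0b2, the repressor SHP, at -0.67 (0.494). Nr0b2 stood at 7.76 in CANA replicate 1, inside the CR range, and at 6.55 to 6.72 in the other CANA arrays. Among 32 tested cytochrome P450 genes of families 1 to 3 none was called and 11 lay above zero. Cyp2c55 was at -0.81 (0.165) and Cyp2c70, a bile acid hydroxylase of mice, at -0.75 (0.222). These were the 2 of the 32 without overlap on the low side, beside 1.51% of all genes. A dim probe set of Cyp2c55 below the filter gave 0.50.

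Of the other called genes, Ctcflos and Brap were called in every fit without an array. Ctcflos is a long non-coding RNA that RefSeq places on chromosome 2 between Ctcfl, the testis paralog of the insulator protein CTCF, and Pck1. It stood at 7.50, 8.01, 8.27 and 7.65 in CANA, at 6.35, 6.20, 6.31, 6.78 and 6.93 in CR, and at 6.34, 6.61, 6.89 and 6.35 in HFD. CANA was above all other arrays, and CR and HFD shared 1 range. The difference was 1.35 (SE 0.18, 2.54-fold, limma adjusted p = 0.00641), while the neighbour Ctcfl was at 0.70 (SE 0.17, 0.185), with CR replicate 5 inside the CANA range. RefSeq also lists the coding gene Gm40011 as overlapping it. Whether transcripts of neighbouring or overlapping genes share its probe signal was not tested.

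Brap encodes a ubiquitin ligase that dampens Ras signalling, and in RefSeq it overlaps Acad10, an acyl-CoA dehydrogenase. Brap stood at 9.62, 9.69, 9.59 and 9.45 in CANA, at 8.99, 8.95, 9.05, 9.01 and 9.03 in CR, and at 9.25, 9.17, 9.08 and 8.98 in HFD. The CR arrays were tightly grouped, and all CANA arrays were above them. The difference was 0.58 (SE 0.08, limma adjusted p = 0.00786), while Acad10 was at 0.05 (SE 0.14, 95% interval -0.25 to 0.36) and overlapped.

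Fbf1, a protein of the centriole's distal appendages, stood at 5.99, 6.62, 6.61 and 6.43 in CANA and at 5.53, 4.67, 5.31, 5.17 and 5.79 in CR. CR replicate 5 was close to CANA replicate 1. The difference was 1.12 (SE 0.18, limma adjusted p = 0.0195), lost without CANA replicates 2, 3 or 4 or CR replicate 4 (0.0568 to 0.0874). Tbc1d8, a protein with a Rab GTPase-activating domain, stood at 8.25, 8.04, 8.47 and 8.13 in CANA and at 7.14, 7.30, 6.92, 7.71 and 7.62 in CR. CR replicates 4 and 5 were the nearest. The difference was 0.88 (SE 0.15, limma adjusted p = 0.0261), lost without CANA replicates 1, 2, 3 or 4 or CR replicates 1 or 2 (0.0504 to 0.119).

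Tmed5, a p24 cargo receptor between endoplasmic reticulum and Golgi, stood at 7.36, 7.51, 7.66 and 7.64 in CANA and at 6.98, 6.90, 7.03, 7.04 and 7.12 in CR. The ranges were apart. Its difference of 0.53 (SE 0.09, limma adjusted p = 0.0207) lost its call without CANA replicates 2, 3 or 4 or CR replicates 1, 2 or 4 (0.0563 to 0.0969). The chaperones of the same compartment were not called, with 5 of 24 above zero and a median of -0.11. Rtkn, which encodes rhotekin, stood at 4.80, 5.02, 4.88 and 4.93 in CANA and at 5.50, 5.49, 5.65, 5.55 and 5.33 in CR. CANA was below all CR arrays, and its difference of -0.60 (SE 0.09, limma adjusted p = 0.0115) missed the threshold only without CANA replicate 3 (0.0512).

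Csrp2, a LIM-domain protein, stood at 6.57, 6.62, 6.73 and 6.66 in CANA and at 6.26, 6.13, 6.10, 6.17 and 5.99 in CR. The arrays of each group were close together and the groups apart, at 0.52 (SE 0.08, limma adjusted p = 0.0160), with the call lost without CR replicate 2 or CANA replicates 3 or 4 (0.0513 to 0.0783). Stellate cells, the fibre-forming cells of liver, are a known source of Csrp2. Of 10 tested stellate and fibroblast markers 7 lay above zero with a median of 0.12 and none was called. Their mean level was 7.05 to 7.22 in CANA and 6.84 to 7.16 in CR, and their part in the Csrp2 difference was not tested.

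The remaining called loci are a non-coding RNA and a pseudogene. The non-coding RNA 9430037G07Rik, on chromosome 9, stood at 5.77, 6.47, 6.49 and 6.34 in CANA and at 4.91, 5.16, 5.13, 5.60 and 4.85 in CR. CR replicate 4 was close to CANA replicate 1, and the difference was 1.14 (SE 0.20, limma adjusted p = 0.0265), lost without CANA replicates 2, 3 or 4 or CR replicates 1, 2, 3 or 5 (0.0551 to 0.121). Gm4956, a transcribed pseudogene next to the glutathione transferase gene Gsta3 on chromosome 1, stood at 5.14, 5.65, 4.90 and 4.81 in CANA and at 6.12, 6.05, 6.27, 6.27 and 5.76 in CR. CANA replicate 2 and CR replicate 5 were neighbours in that order, and the difference was -0.97 (SE 0.18, limma adjusted p = 0.0423). Its call was lost without CANA replicates 1, 3 or 4, CR replicates 1, 2, 3 or 4, or HFD replicate 4 (0.0556 to 0.184). Gsta3 itself was at -0.34 (0.557), and a pseudogene can share probe sequence with its parent family.

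The continued diet gave each of the 20 called genes a further level to set beside the 2 groups compared. The 3 comparisons share arrays, so the values stand side by side and are no separate evidence. The HFD mean was closer to the CR mean than to the CANA mean in all 13 higher and all 7 lower genes. It lay between the 2 groups in 7 of the 13 higher and 6 of the 7 lower genes, below both in the other 6 higher genes, and above both in Fasn. CR minus HFD ran from -0.27 in Fasn to 0.70 in Ppp1r3c, each with a limma adjusted p of 0.999. In Ppp1r3c the HFD mean lay between the groups, with CANA minus HFD at -1.41 (adjusted p = 0.0369) and CR minus HFD at 0.70 (SE 0.23). Lepr had CANA minus HFD at 2.45 (0.00235) and CR minus HFD at 0.45 (SE 0.26). Fasn had -1.41 (0.0109) and -0.27 (SE 0.19). Pklr had -0.73 (0.166) and 0.24, Gm4956 -0.73 (0.175) and 0.24, and Abcb4 0.35 (0.192) and -0.12. Fbf1 had 0.93 (0.0636) and -0.18, and Akr1c20 had -0.76 (0.0636) and 0.14. In these 5 genes the CANA minus HFD difference did not pass by itself.

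**Figure D4:**
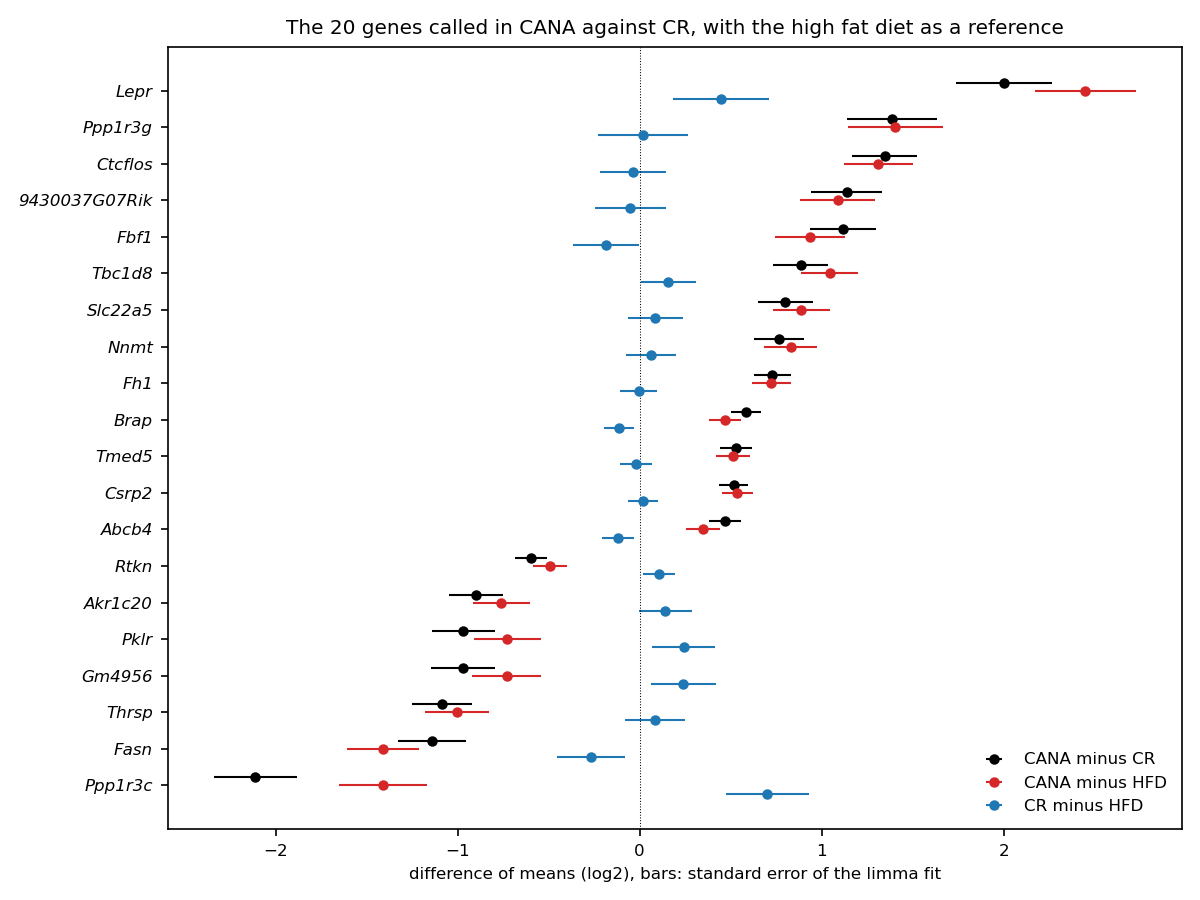
The 20 called genes with 3 differences of mean log2 values each, CANA minus CR in black, CANA minus HFD in red and CR minus HFD in blue, with bars for the standard error of the limma fit. Blue points lie between -0.27 and 0.70, and the black and red points of each gene lie on the same side of zero.

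The arrays were not evenly placed within their groups. Among the 13 higher genes, CANA replicate 3 was the highest CANA array in 9 and CANA replicate 1 the lowest in 9, and CR replicate 5 was the highest CR array in 8. The direction of all 20 genes was the same within serial numbers 1 to 8 and within 9 to 14. It could not have differed, since CANA and CR arrays did not overlap in any of the 20. No difference moved by over 1.5 times in either set. Within 1 to 8, 4 of the 20 were called, and within 9 to 14, with 2 arrays a group, none was, while 910 of all genes there reached an unadjusted p under 0.05 in limma. With the serial-number set as a term in the fit all 20 were called. The cut that makes this term was chosen from these same data, so the count is no separate support.

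Several other gene lists held no called gene. Circadian clock genes lay above zero in 3 of 16 with a median of -0.13 and none called, with Per3 at -0.35 (0.345) and Bhlhe40 at -0.49 (0.411). Immediate-early genes had a median of 0.21, acute phase proteins 0.12 and nuclear-encoded respiratory chain subunits 0.07, with 14 of 20, 13 of 19 and 25 of 31 above zero and none called. Over the other settings these medians ran from 0.02 to 0.29, from 0.05 to 0.24 and from -0.02 to 0.13. Around its gene means the immediate-early list stood at -0.02, -0.06, 0.49 and -0.07 in CANA. It stood at 0.04, -0.19, -0.06, -0.01 and 0.07 in CR, so only CANA replicate 3 lay above the CR arrays. Fgl1, a liver-secreted fibrinogen-like protein, was at 1.09 (SE 0.28, 0.209). Ketone body synthesis, apolipoproteins, complement and coagulation proteins, cytosolic ribosomal proteins, and autophagy and lysosome genes had medians of -0.01, -0.01, 0.00, 0.00 and 0.00, with none called.

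Amino acid breakdown had 18 of 29 tested genes above zero, a median of 0.07 and no call. Its genes without overlap were 3 of 29, beside 2.93% of all genes, namely Hgd, a dioxygenase of tyrosine breakdown, at 0.27 (0.305), Kynu, the kynureninase of tryptophan breakdown, at 0.37 (0.281) and Cth, which splits cystathionine to cysteine, at 0.41 (0.284). The list of fatty acid uptake, binding and activation had a median of 0.01 over 15 genes. Of these, 2 had no overlap on the high side and 1 on the low side, beside 1.42% and 1.51% of all genes. Among them, Slc27a1, a fatty acid transport protein, was at 0.61 (SE 0.19, 0.344), and Acsl5, a long-chain acyl-CoA synthetase, was at -0.31 (SE 0.11, 0.440). Ctsl, the lysosomal protease cathepsin L, stood at 10.46, 11.00, 10.62 and 10.48 in CANA and at 10.24, 10.21, 10.18, 10.16 and 10.26 in CR. Its CR arrays were tightly grouped below CANA, and the difference of 0.43 (SE 0.10, limma adjusted p = 0.171) did not pass. Lect2, a liver-secreted hormone, was at -0.41 without overlap (SE 0.11, 0.241).

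Markers of other cell types were not called in any list. All 9 tested macrophage markers lay above zero with a median of 0.14, with a mean level of 6.41 to 6.91 in CANA, 5.92 to 6.72 in CR and 6.09 to 6.89 in HFD. Marco, a macrophage scavenger receptor, was at 0.77 (SE 0.42, 0.653). Sinusoidal endothelial markers lay below zero in 8 of 9 with a median of -0.13, with a mean level of 7.27 to 7.68 in CANA and 7.34 to 7.78 in CR. Of 6 adipocyte markers 3 passed the filter on dim genes, all above zero with a median of 0.30, led by Fabp4 at 0.68 (0.261). Of 6 pancreatic acinar markers 2 passed it, with a median of -0.07, and of 5 kidney tubule markers 4 did, with a median of -0.01. What part these shifts have in the called genes was not tested.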

How the data were processed

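Liver RNA was hybridised to mouse gene arrays of Affymetrix. The deposited log2 values were made by the authors with RMA in Affymetrix Expression Console, as the submitters' processing notes name them, with versions not given in the sources used here. RMA corrects background and quantile-normalizes all arrays together, so a shift shared by most genes would not show. Of 41345 probe sets, 23521 have exactly 1 gene symbol in the platform annotation, 23328 of them matched to RefSeq by Entrez identifier, and 1814 with several symbols and 16010 with none were left out. For the 1082 of 22180 genes with several probe sets, the one with the highest mean was used. Dim genes, under the 40th percentile of the means (3.95), were dropped, and 13308 remained.

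All 13 arrays were fitted in limma 3.58.1 (R 4.3.3) with a mean per group, no covariate, 10 residual degrees of freedom and 5.71 from the prior. Genes were called at a two-sided Benjamini-Hochberg adjusted p under 0.05, and every p in parentheses is that adjusted p. The fit was tested on simulated data in which each gene varied independently and arrays carried no shared shift. That test does not cover such effects in these arrays. No scanner files or detection p-values were used here.

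Members, gene lists and most settings were chosen with earlier results of these data known. The rule named called genes without overlap, the called or lowest-p members of each list described, and fixed genes of glucose, lipid and hormone pathways. Acaca, Acly, Mid1ip1, Khk, Txnip, Fdps, Ppp1r3b, Gys2, Pygl, Crot, Cyp4a14, Hsd3b3, Cyp8b1, Nr0b2, Ctcfl, Leprot, Acad10, Gsta3, Marco, 9430037G07Rik and Gm4956 were added after their values were seen. Promoter windows came from a RefSeq table on GRCm38.p6 and were searched for 8 motifs. Filters, probe set choice, normalization, variance model, array weights, covariates, the replicate number as a block and each array left out in turn were varied.

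Whether the samples are paired was not settled. The deviations of same-numbered CANA and CR arrays correlated at 0.209, 0.126, -0.138 and 0.113. By order of serial number, CANA replicate 3 sits with CR replicate 4 and CANA replicate 4 with CR replicate 5, and these correlated at 0.104 and 0.0696. Over all CANA and CR pairs the values ran from -0.227 to 0.209, and so few arrays cannot exclude a pairing.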

Additional observations from a re-analysis of the deposited data

Results flagged for a closer look

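For 80 named genes, each group of 4 or 5 arrays was checked for an array standing far from the rest of its own group. In 15 of 240 groups (6.25%) the gap to the nearest array took up most of the group's range, and chance gives about 1 in 20 groups.

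CANA replicate 1 stood high in Acaca at 8.05, in Angptl8 at 7.03 and in Nr0b2 at 7.76. CANA replicate 3 stood high in Acot1 at 7.72 and in Cyp4a31 at 8.60. CANA replicate 4 stood high in Sc5d at 10.90. In CR, replicate 1 stood high in Lect2 at 9.98, replicate 3 stood low in Gsta3 at 10.24 and in Slc5a2 at 3.99, and replicate 4 stood low in Gys2 at 10.56. In HFD, replicate 1 stood low in Akr1c20 at 5.87, in Per3 at 6.83 and in Sc5d at 10.58, and high in Pygl at 10.01. HFD replicate 4 stood high in Cyp2c55 at 6.27.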

How the results depend on the processing

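The main count was 20 genes, 13 higher and 7 lower. No filter on dim genes, filters at the 20th and 60th percentile, all probe sets, their mean, median centring, a further quantile normalization, other variance models, array weights and the serial-number terms gave 16 to 26. A fit to only the 9 arrays compared called 16 genes, 6 higher and 10 lower, and kept 13 of the 20. It lost Tmed5 (adjusted p = 0.0563), Fbf1 and Tbc1d8 (0.0577 each), Slc22a5 (0.0795), Nnmt (0.0871), Ppp1r3g (0.0912) and Abcb4 (0.0981). An adjusted p under 0.10 called 34 genes, 15 of them lower. Within serial numbers 1 to 8 there were 5 calls, 3 higher and 2 lower. Within 9 to 14 limma made 0 calls, 0 higher and 0 lower, with 910 genes at an unadjusted p under 0.05 and fewer arrays than the full fit. Leaving out 1 array gave 7 to 23 calls, 5 to 16 of them higher and 2 to 10 lower. The replicate number as a block called 17 genes, 11 higher and 6 lower, with 13 of the 20 among them. Whether these numbers pair the samples was not settled.

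Signs turned in 3 genes that were not called, and the cause was not tested. Slc5a2 was at 0.064 within serial numbers 1 to 8. Leprot was at 0.030 within 9 to 14 and ran from -0.086 to 0.064 with 1 array left out. Acad10 ran from -0.023 to 0.12 with 1 array left out. No other named gene changed sign in any setting. Several named genes that missed the threshold passed it elsewhere in limma. Angptl8 passed with only the 9 arrays (0.0205), with the block (0.0462) and without HFD replicates 2 or 3 (0.0423 and 0.0159). Sik1 and Ppargc1a passed with either serial-number term and without CANA replicate 1 (0.00937 to 0.0489). Scd1 passed with the serial-number set as a term, and Scd1 and Ppp1r3b passed without CR replicate 3 (0.0194 each). Igfbp1 passed with the serial number as a covariate (0.0430) and within numbers 1 to 8 (0.0295), and Ctcfl with the block (0.0253) and without CR replicate 5 (0.0355). Over their alternatives the adjusted p ran up to 0.590 in Angptl8, 0.348 in Scd1 and 0.551 in Ppargc1a.

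Small list medians also turned sign among 28 alternatives each. This happened in 9 for complement and coagulation, fatty acid uptake and ketone body synthesis, in 8 for the insulin and FoxO list, in 7 for ribosomal proteins, in 4 for glycogen and for autophagy, in 3 for apolipoproteins, in 2 for the citric acid and urea cycles, and in 1 for lipid droplets, amino acid breakdown and the respiratory chain. Of the list medians recomputed, 1247 kept within and 13 moved by more than the spread (SD) between arrays. Values near the lower limit, such as those of Slc5a2, Rtkn, Ctcfl, Lepr and Ppp1r3g in some groups, are limited by signal over background, which was not measured here.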
